A study of Ovis aries with 9 samples.

Results

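Reads from the 5′ end of the lysine tRNAs were followed in sperm small RNA of F1 rams. A distinct sequence was taken when its deposited annotation named it as a 5′ end of mature-tRNA-Lys-CTT or mature-tRNA-Lys-TTT, the lysine tRNAs with the anticodons CTT and TTT. These were 2 of 54 nuclear tRNA names with 5′ end reads, and 705 of 3309646 distinct sequences. The Lys-CTT name held 443 sequences and the Lys-TTT name 323, and some carried both names. In the RefSeq annotation of assembly ARS-UI_Ramb_v3.0 the sheep genome has 36 genes for the CTT isoacceptor and 39 for TTT, among 2451 tRNA genes.

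The rams were wild type, and the labels name 3 groups by feeding: standard feeding (CON), over feeding (OVER) and restricted feeding (RES), which the series title ties to the nutrition of the mother in gestation. No age is given for the rams, and nothing is said of whether animals were pooled. Sperm from semen were put through a detergent buffer against somatic cells before RNA extraction, and RNA of 15 to 50 nt was selected for the libraries. Each group has 3 labelled samples, but the 3 tables of a group hold the same sequences and the same read counts. Each group was therefore counted as 1 library, with no replicate error and no test between groups. The intervals given are exact 95% intervals that cover counting error only, and every difference is between libraries.

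A tRNA carries an amino acid to the ribosome and pairs with messenger RNA through the 3 bases of its anticodon. Under stress and in maturing sperm, tRNAs are cut in or near the anticodon loop, and the 5′ part that is left, often called a tRNA-derived stress-induced RNA, is abundant in mammalian sperm. Shorter 5′ fragments end in or near the D loop. In rodents, 5′ fragments of several tRNAs in sperm have been reported to move with the diet of the male.

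The 2 lysine tRNAs share nearly the same 5′ part, so the sequences are shown first. The most abundant 33 nt read of each tRNA differs from that of the other at 2 of 33 bases, C7A and G28C, counted from 1 at the 5′ end, with the CTT base first. A less abundant form of the CTT tRNA differs from the main one by A29G. In the lines that follow, capitals mark bases 7, 28 and 29 where the read reaches them.
Lys-CTT, 33 nt: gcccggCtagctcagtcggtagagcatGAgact
Lys-CTT, form with A29G, 34 nt: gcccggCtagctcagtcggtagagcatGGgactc
Lys-TTT, 33 nt: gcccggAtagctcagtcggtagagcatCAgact
Lysine, TTT-type start, 24 nt: gcccggAtagctcagtcggtagag

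Longer reads of the same tRNAs show where the 33 nt read stops. In the following 36 nt reads, capitals mark the anticodon, which takes bases 34 to 36 in all 3 forms. A read of 33 nt thus ends on the base just before the anticodon.
Lys-CTT, 36 nt: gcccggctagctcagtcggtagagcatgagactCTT
Lys-CTT, form with A29G, 36 nt: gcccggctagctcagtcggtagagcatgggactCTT
Lys-TTT, 36 nt: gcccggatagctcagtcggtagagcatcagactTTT

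The libraries held 9983895 reads in CON against 8287937 in OVER and 13160116 in RES, of 15 to 42 nt. Levels are given as reads per 1000000 reads of the library (RPM), with 3 values in a row in the order CON, OVER and RES, and 3 reads correspond to 0.300, 0.362 and 0.228 RPM. OVER was rich in short RNA: 29.6% of its reads were 15 to 20 nt long, against 5.98% in CON and 10.3% in RES. The 32 to 34 nt range held 14.1% of CON, 7.15% of OVER and 13.8% of RES. Of the markers looked up by name, 0 of 3 germ cell miRNAs (miR-34b, miR-34c, miR-449a) were named in the files, so the sperm label was not checked from the files' miRNA names. Of 5 epithelial miRNAs, 3 were named (miR-200a, miR-200b and miR-200c), with a summed level of 413.1 RPM in CON, compared with 896.8 in OVER and 114.9 in RES. Of 3 white blood cell markers only miR-150 was named, at 1.20, 1.21 and 2.81 RPM, and 0 of 3 red blood cell markers were.

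By name, both lysine tRNAs had their highest level in OVER and their lowest in RES. The Lys-CTT name had 1004 RPM in CON against 1459 in OVER and 288.8 in RES. Its log2 ratio of OVER to CON was 0.54 (0.50 to 0.58) and that of RES to CON was -1.80 (-1.85 to -1.74). The Lys-TTT name had 1079 RPM in CON, compared with 1415 in OVER and 728.0 in RES. Its log2 ratios were 0.39 (0.35 to 0.43) for OVER to CON and -0.57 (-0.61 to -0.53) for RES to CON. The RES value for Lys-TTT turned to 0.26 when reads were scaled to all nuclear tRNA 5′ end reads and was -0.03 with TMM scaling, so its direction depends on the scaling. OVER to CON and RES to CON share the CON library and are not independent.

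A change of at least 2-fold was common among tRNA names in OVER. Of 43 nuclear tRNA names with at least 100 reads in OVER and CON together, 30.2% stood 2-fold or more above CON and 30.2% 2-fold or more below it, and 0 of the 2 lysine names did either. In RES against CON, 0% of 39 names stood 2-fold or more above CON and 25.6% 2-fold or more below it. Lys-CTT was among the lower names and had the lowest ratio of the 39, while Lys-TTT lay within 2-fold. With TMM scaling 5 names were at least 2-fold higher in RES and 1 lower, and with DESeq2 size factors 1 was higher and 2 lower. In OVER against RES, 40.5% of 42 names stood 2-fold or more above RES and 19% 2-fold or more below it, and Lys-CTT (log2 ratio 2.34) was higher and Lys-TTT (0.96) was not. That split of 17 higher and 8 lower names was 11 and 10 with TMM and 10 and 10 with DESeq2 size factors. The median log2 ratio over all names was 0.22 for OVER to CON and -0.43 for RES to CON.

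**Figure D1:**
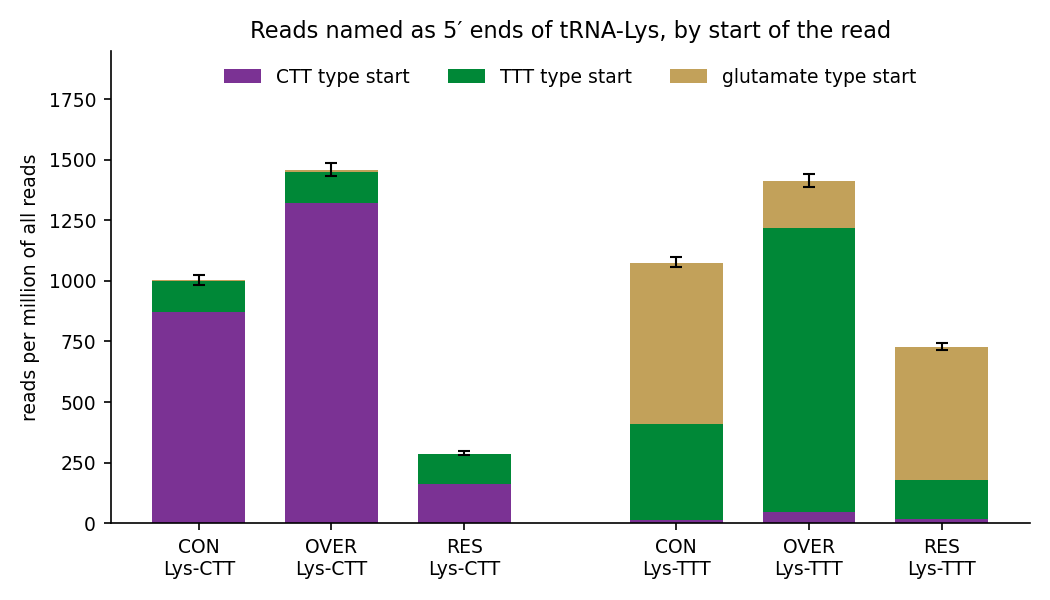
Level (RPM) of reads that carry the Lys-CTT or the Lys-TTT 5′ end name in the CON, OVER and RES libraries, stacked by how the read starts, with exact 95% counting intervals of the total. The Lys-TTT bars of CON and RES are mostly glutamate-type reads, 61.6% and 75.3%, while the OVER bar is 82.8% TTT-type.

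The Lys-TTT name was not one population of reads. Each read was placed by its first 15 bases: a lysine-type start within 2 mismatches of the lysine sequence, split by base 7 into C (CTT type) and A (TTT type), or a glutamate-type start. Among reads with the Lys-TTT name, 61.6% in CON against 13.8% in OVER and 75.3% in RES began like tRNA-Glu, and nearly all of these also carried a glutamate name. A single 26 nt glutamate-type sequence supplied 591.5 RPM in CON, compared with 178.9 in OVER and 504.4 in RES, more than the lysine sequences of this name in CON and RES. In the Lys-CTT name the glutamate type was 0.249 to 0.842% of reads, but this name was mixed too. TTT-type starts made up 12.9% of it in CON against 8.97% in OVER and 42.6% in RES, and CTT-type starts 86.7%, 90.5% and 56.1%. The TTT type made up 36.8% of the Lys-TTT name in CON against 82.8% in OVER and 22.1% in RES.

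Counted by start in place of the name, the TTT type differed more between the libraries than the Lys-TTT name did. TTT-type reads had 396.6 RPM in CON against 1172 in OVER and 160.9 in RES, log2 ratios of 1.56 (1.51 to 1.62) for OVER to CON and -1.30 (-1.38 to -1.23) for RES to CON. CTT-type reads had 870.7 RPM in CON, compared with 1320 in OVER and 162.1 in RES, log2 ratios of 0.60 (0.56 to 0.64) and -2.43 (-2.49 to -2.36). Glutamate-type reads with a lysine name went the other way in OVER, at 665.6 RPM in CON against 194.9 in OVER and 548.5 in RES. The leading TTT-type reads of 24 and 26 nt carried both lysine names, so only the start type places them with the TTT tRNA. Reads of 24 to 26 nt were 79.9% of the TTT type in RES. Reads that carried Lys-TTT and no other tRNA 5′ name had 269.4, 1040 and 38.60 RPM, with a RES to CON log2 ratio of -2.80. Those with Lys-CTT alone had 857.0, 1275 and 145.2 RPM. No CTT-type read of 24 nt was analysed here, so the types are not compared at that length.

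Reads of 32 to 34 nt, which end just before the anticodon or on its first base, were higher than CON in OVER and far lower in RES for both tRNAs. Nearly all reads of this length carried 1 lysine name alone, with 4 exceptions in OVER under each name and 0 in CON and RES. TTT-type reads of 32 to 34 nt had 235.3 RPM in CON, compared with 1017 in OVER and 14.21 in RES. That is 4.32-fold higher in OVER than in CON (log2 ratio 2.11, 2.05 to 2.18) and 16.6-fold lower in RES (-4.05, -4.27 to -3.83). CTT-type reads of the same length had 588.8, 1183 and 38.45 RPM, 2.01-fold higher in OVER (1.01, 0.96 to 1.05) and 15.3-fold lower in RES (-3.94, -4.07 to -3.81). The RES values rest on 506 CTT-type and 187 TTT-type reads. Between OVER and RES the TTT type differed 71.6-fold and the CTT type 30.8-fold. Both directions held when lysine reads were set against the nuclear tRNA 5′ end reads of that length alone, of which they were 2.32% in CON against 8.70% in OVER and 0.515% in RES. The miR-200 level moved the same way, with log2 ratios of 1.12 for OVER to CON and -1.85 for RES to CON, and its part in the result was not tested. Y RNA reads of 32 to 34 nt did not follow this order, at 45709 RPM in CON, compared with 22658 in OVER and 88485 in RES.

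**Figure D2:**
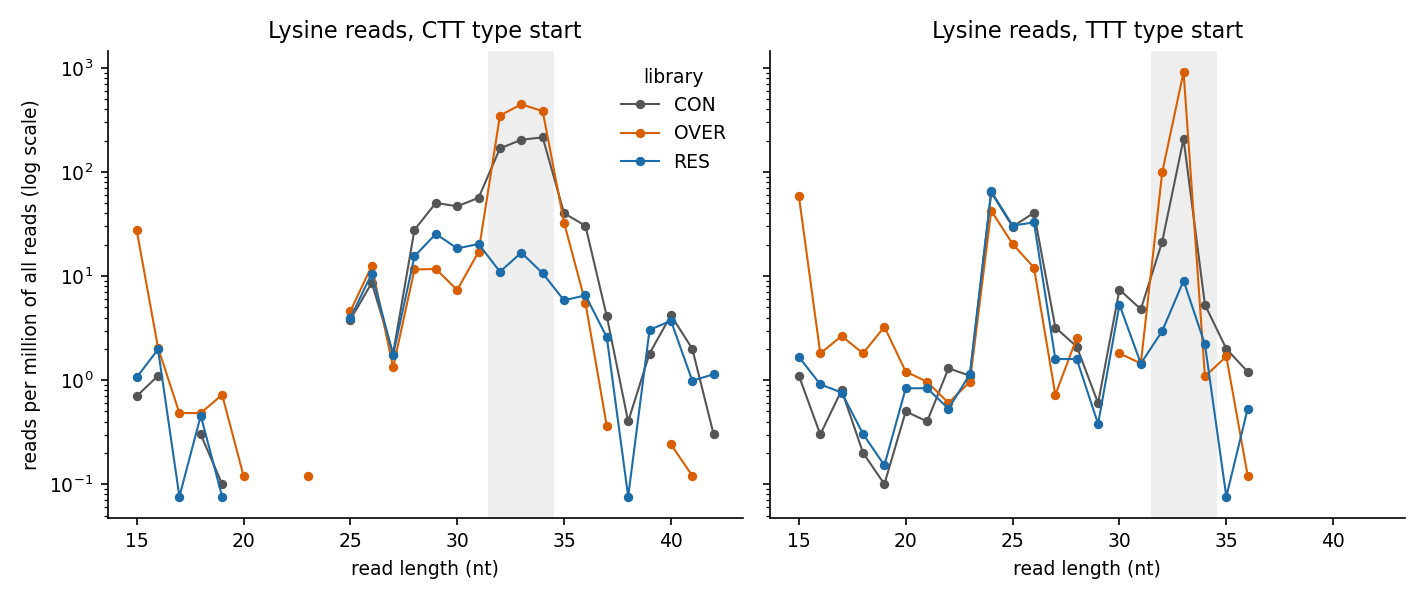
Level in RPM (log scale) by read length for lysine reads with a CTT-type start (left) and a TTT-type start (right) in the 3 libraries, with lengths at 0 reads left out and 32 to 34 nt shaded. At 33 nt OVER stands above CON and CON above RES in both panels, while at 24 to 26 nt the TTT-type lines of CON and RES run together.

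In RES the TTT-type reads that were few at 32 to 34 nt were at the CON level at 24 to 26 nt. At 24 to 26 nt, TTT-type reads had 134.2 RPM in CON and 128.6 in RES, a log2 ratio of -0.06 (-0.17 to 0.04) whose interval includes 0, while OVER had 74.93 RPM. With nuclear tRNA 5′ end reads as the denominator, which shifts OVER to CON by 1.35 and RES to CON by 0.83 on the log2 scale, both libraries stand above CON at 24 to 26 nt. The 24 nt read printed in the opening lines had 58.79 RPM in CON against 37.04 in OVER and 57.90 in RES. Reads of 24 to 26 nt were 33.8% of the TTT type in CON against 6.39% in OVER and 79.9% in RES. Reads of 32 to 34 nt were 59.3% in CON, compared with 86.8% in OVER and 8.83% in RES. With all nuclear tRNAs together, 5′ end reads of 24 to 26 nt had 4118 RPM in CON against 3514 in OVER and 3834 in RES, and those of 32 to 34 nt 35513, 25305 and 10236 RPM.

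At 27 to 31 nt, CTT-type reads had 183.7 RPM in CON, compared with 49.11 in OVER and 81.53 in RES, lower than CON in both other libraries, with log2 ratios of -1.90 (-2.06 to -1.75) and -1.17 (-1.28 to -1.06). The TTT type had 18.13, 6.515 and 10.33 RPM there. Reads of 27 to 31 nt were 21.1% of the CTT type in CON against 3.72% in OVER and 50.3% in RES, and those of 32 to 34 nt 67.6%, 89.6% and 23.7%. These shares leave out 24 nt, a length at which no CTT-type read was analysed here. At 25 and 26 nt the CTT type was rare, with 12.42 RPM in CON against 17.13 in OVER and 14.51 in RES, against 70.51, 32.46 and 63.45 RPM for the TTT type. Reads of 35 to 42 nt, which run into or past the anticodon, were nearly all CTT-type, at 83.53 RPM in CON, compared with 38.97 in OVER and 23.94 in RES. With nuclear tRNA 5′ end reads as the denominator, OVER stood above CON at this length.

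Very short lysine reads were far higher in OVER. Lysine-type reads of 15 nt had 2.30 RPM in CON against 87.11 in OVER and 2.89 in RES, 37.8-fold higher in OVER than in CON (log2 ratio 5.24, 4.64 to 5.91). A 15 nt TTT-type read had the highest OVER to CON ratio of the sequences compared under either name, and it carried both names. This read had 10 reads in CON and 446 in OVER (53.81 RPM), a log2 ratio of 5.75 (4.86 to 6.82), and RES had 21 reads. Its ratio rests on few reads in CON. OVER also had the largest share of 15 to 20 nt reads over the whole library, 29.6%, and the part of this in the 15 nt result was not tested.

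Within 32 to 34 nt the 2 tRNAs stopped differently. In CON and OVER the TTT type of this range was mostly 33 nt long, ending just before the anticodon (88.6% and 90.1%), and in RES the share was 63.6% (56.3 to 70.5). In RES the 32 nt and 34 nt reads took 20.9% and 15.5%, against 9.11% and 2.26% in CON. CTT-type reads were spread over 32, 33 and 34 nt, with 28.7%, 34.7% and 36.6% in CON and 29.6%, 37.9% and 32.5% in OVER. In RES 28.7% were 32 nt, 43.7% were 33 nt and 27.7% were 34 nt long. The TTT type was 28.5% of lysine reads at 32 to 34 nt in CON against 46.2% in OVER and 26.9% in RES (23.7 to 30.4), so the TTT share was higher in OVER, while the RES interval includes the CON value.

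The leading sequences of 32 to 34 nt had their highest level in OVER and their lowest in RES. The 33 nt Lys-TTT read had 186.3 RPM in CON, compared with 811.5 in OVER and 8.59 in RES, log2 ratios of 2.12 (2.05 to 2.20) and -4.44 (-4.73 to -4.16). It was the most abundant lysine read of OVER among those named. The 33 nt Lys-CTT read had 181.4 RPM in CON against 387.1 in OVER and 14.51 in RES, log2 ratios of 1.09 (1.01 to 1.18) and -3.64 (-3.87 to -3.43). In CON the levels of these 2 reads lay close together, and in OVER the TTT read was well above the CTT read. The 34 nt read of the main CTT form, 1 base longer, had 154.6, 214.2 and 7.29 RPM, a RES to CON log2 ratio of -4.41 (-4.72 to -4.11). The 36 nt read of the main CTT form, which holds the whole anticodon, had the lowest OVER to CON ratio of the Lys-CTT sequences compared. It had 12.52 RPM in CON, compared with 1.33 in OVER and 0.988 in RES, so it was lower than CON in both. In read counts it had 125, 11 and 13. The 36 nt read of the A29G form, with the same anticodon, had 149, 31 and 65 reads.

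The 2 forms of the CTT tRNA that differ by A29G had different length profiles. Base 29 lies in the anticodon stem, and reads of 29 nt or more can be told apart by it. At 32 to 34 nt the main form had 539.3 RPM in CON against 1020 in OVER and 34.57 in RES, and the A29G form had 49.58, 163.0 and 3.88 RPM. In OVER the A29G form was at 3.29 times its CON level (log2 ratio 1.72, 1.57 to 1.87), against 1.89 times for the main form (0.92, 0.87 to 0.97). Within 32 to 34 nt, reads of the A29G form were mostly 34 nt long, with 92.9% in CON against 92.4% in OVER and 76.5% in RES, while 34 nt reads were 31.4%, 23% and 22.2% of the main form. At 35 to 42 nt the A29G form was the larger of the pair, with 63.4% of CTT-type reads in CON against 76.5% in OVER and 76.2% in RES, although it was 8.42%, 13.8% and 10.1% at 32 to 34 nt.

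In CON and OVER, differences from the printed 33 nt sequences were concentrated at 3 positions, the same in both tRNAs. Among 33 nt reads with at most 1 difference, another base stood at position 6 in 4.02% of main-form CTT reads in CON and 4.42% in OVER, and in 3.89% and 3.48% of TTT reads. At position 10 the values were 2.08% and 1.73% for CTT and 2.21% and 2.25% for TTT. At position 33, the last base, they were 2.23% in CON and 4.29% in OVER for CTT, and 2.98% and 4.20% for TTT. Across the other 30 positions the highest value in CON and OVER was 0.347%, and the medians were 0.050% or less. Position 7 could not differ, because it sets the start type, nor could position 29 in CTT reads, because it sets the form. RES had 211 CTT and 119 TTT reads for this count, with 2.84% and 4.20% at position 6 and 0.948% and 0.840% at position 33, and its CTT reads had 1.42% at position 1. At position 10, 0 of 119 TTT reads differed in RES, which allows up to 3.05%. The commonest change at the last base in OVER was T33C, in 3.24% of CTT and 3.25% of TTT reads.

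**Figure D3:**
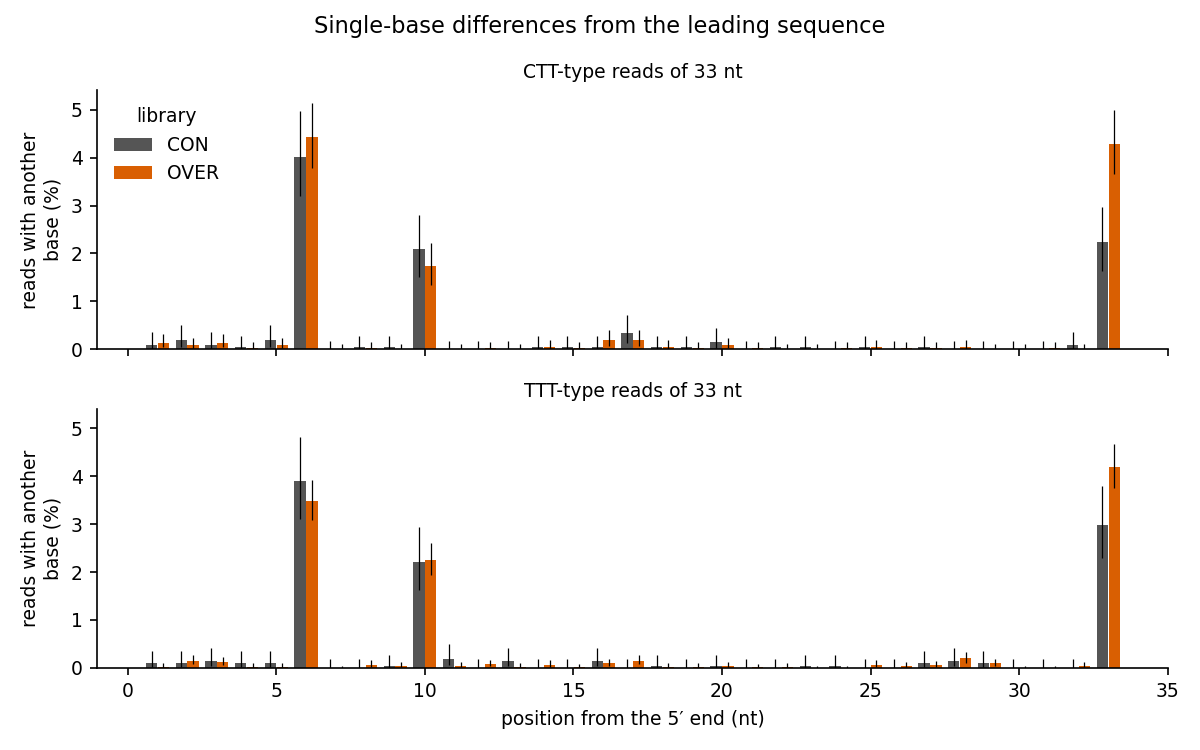
Percentage of 33 nt reads with another base than the printed sequence at each position from the 5′ end, for CTT-type (main form) and TTT-type reads in CON and OVER, with exact 95% intervals. Positions 6, 10 and 33 stand out in both tRNAs, and the other 30 positions stay at or below 0.347%. Position 7, and position 29 for CTT, are fixed by how the reads were chosen.

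Most reads began at base 1. Of reads that matched the first bases of a lysine tRNA, searched with 18 bases from each starting point up to base 6 and whatever their annotation, 92.8% of CTT-type reads in CON against 91.3% in OVER and 83.2% in RES began at base 1. For the TTT type the values were 90.4%, 94.9% and 82.7%. A start at base 2 was rarest in OVER and most frequent in RES, with 2.86%, 0.806% and 8.21% of CTT-type and 5.73%, 1.20% and 8.04% of TTT-type reads in CON, OVER and RES. A start at base 3 did not follow that order for the CTT type, with 2.45%, 4.32% and 3.62%, and for the TTT type it was 2.91%, 3.09% and 6.80%.

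Set against other tRNAs at 32 to 34 nt, the lysine names ranked high in OVER to CON and low in RES to CON. This range was chosen after the data were seen, so the ranks in it are descriptive only. Over all lengths Lys-CTT ranked 17th and Lys-TTT 19th of 43 names in OVER to CON. In RES to CON they ranked 39th and 22nd of 39. In OVER against CON, 22.7% of 22 names stood 2-fold or more above CON and 45.5% 2-fold or more below it. Lys-TTT ranked 1st and Lys-CTT 4th from the top. The Lys-CTT ratio lay at the 2-fold line (1.01, 0.96 to 1.05). Scaling to annotated reads (a shift of -0.13) or by DESeq2 size factors (-0.10) takes it below that line. Gly-TCC ranked 2nd (1.45), Gln-CTG 3rd (1.19) and Gln-TTG 5th (1.01). In RES against CON, 0% of 20 names stood 2-fold or more above CON and 95% 2-fold or more below it, so a lower value in RES was the common state at this length. His-GTG was the exception (log2 ratio -0.13), and Lys-CTT and Lys-TTT ranked 18th and 19th of 20, above only Val-TAC (-4.77). Glu-CTC (-3.88) and Glu-TTC (-3.69) lay close to Lys-CTT (-3.93), so a fall of this size was not particular to lysine. In OVER against RES, 65% of 20 names stood 2-fold or more above RES and 30% 2-fold or more below it, with Lys-TTT 1st and Lys-CTT 2nd. The median log2 ratio of all names at this length was -0.72 for OVER to CON and -1.89 for RES to CON.

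**Figure D4:**
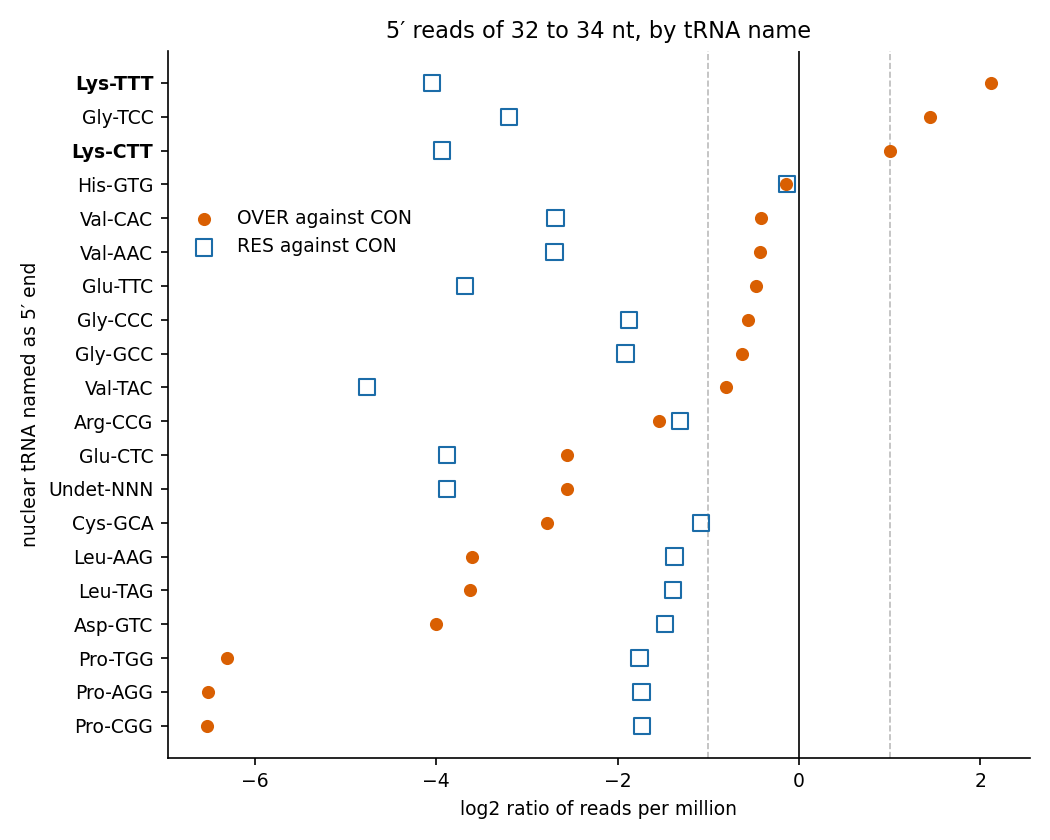
Log2 ratios of RPM at 32 to 34 nt for OVER against CON (circles) and RES against CON (open squares), for the 20 nuclear tRNA 5′ end names with enough reads in both comparisons, ordered by the OVER ratio, with dashed lines at 2-fold. The lysine names, in bold, lie on the right of 0 in OVER (2.11 and 1.01) and far to the left in RES (-4.05 and -3.93). The length range was chosen after the data were seen. Names can share reads, within and across amino acids, so the 20 names are not 20 separate sets of reads. Glu-CTC and the undetermined name Undet-NNN had nearly the same counts. Gln-CTG (1.19) and Gln-TTG (1.01) in OVER against CON are not shown, because they had too few reads in RES against CON.

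Other tRNAs whose 5′ fragments have been followed in sperm in rodent diet work were set beside lysine over all lengths, on the RPM scale. Of these 8 names, the 2 valine names had the lysine order of OVER above CON above RES. Val-TAC, which was not on that list, did not (1.10 and 0.86). The order was not particular to lysine: 14 of 39 names with enough reads in both comparisons had it. Gly-GCC, Gly-CCC and Gly-TCC had log2 ratios of OVER to CON of -0.34, -0.32 and -0.21, and of RES to CON of -0.80, -0.78 and -0.61. Glu-CTC (-3.87 and -1.15), Glu-TTC (-2.50 and -0.99) and His-GTG (-1.11 and -0.27) were lower than CON in both libraries. Val-CAC (0.23 and -0.04) and Val-AAC (0.22 and -0.04) differed little, and their RES values are smaller than the shifts between scalings. With nuclear tRNA 5′ end reads as the denominator, the ratios of the 3 glycine names and of His-GTG turned positive in both comparisons. The name nearest to Lys-CTT in its pair of log2 ratios, among 42 names over 3 libraries, was Arg-TCG (0.50 and -2.19, distance 0.39), a rare tRNA here with 7.61 RPM in CON, followed by Arg-CCG and Ser-CGA. The name nearest to the Lys-TTT name total was Cys-GCA (0.27 and -0.60, distance 0.12), followed by Leu-CAA and Leu-CAG. That total was mostly glutamate-type reads in CON (61.6%) and RES (75.3%). TTT-type reads had log2 ratios of 1.56 and -1.30, away from those of Cys-GCA. At 32 to 34 nt the pair was 2.11 and -4.05 for Lys-TTT against -2.78 and -1.08 for Cys-GCA.

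Reads given a lysine name with no end were not low in RES. Fragments named Lys-CTT with no end given had 305.5 RPM in CON, compared with 1307 in OVER and 393.2 in RES, and those named Lys-TTT had 94.05, 542.7 and 110.2 RPM. In OVER these were 4.28-fold and 5.77-fold above CON, and in RES they were above CON too, with log2 ratios of 0.36 (0.30 to 0.43) and 0.23 (0.11 to 0.35), the second no larger than the -0.23 shift under scaling to annotated reads. Reads from the 3′ end with CCA, the bases added to a mature tRNA, were few: 23.94, 16.65 and 22.11 RPM for Lys-CTT and 14.82, 11.22 and 11.70 RPM for Lys-TTT. Other 3′ end reads had 9.52, 16.77 and 10.64 RPM for Lys-CTT and 5.31, 2.41 and 5.40 RPM for Lys-TTT. Mitochondrial tRNA-Lys comes from a separate gene and serves the mitochondrial ribosome. Its reads with no end named had 206.9 RPM in CON against 608.2 in OVER and 331.8 in RES. Its 5′ end reads had 0.701, 6.52 and 0.532 RPM. Reads antisense to a lysine tRNA had 1.60, 3.98 and 1.22 RPM.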

How the data were processed

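Small RNA libraries of ram sperm were made with the NEBNext small RNA kit and sequenced on an Illumina NovaSeq, per the labels' protocols. The authors deposited whole-number read counts per distinct sequence with length, genome match and annotation, per the file headers. The sources used here name no aligner, annotation tool or genome build, and the submitters' processing notes name edgeR. The 3 tables of a group had the same counts, and their annotations differed in 0 to 3 sequences, none of them lysine, so 1 table per group was used. The members and lists were chosen with earlier results of these data known.

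A read with several names counted in full for each. Counts were scaled to all reads of the library (RPM). Intervals of shares are Clopper-Pearson, and ratios have intervals derived from an exact binomial one for the 2 counts, checked on simulated data. Named sequences were the 5 most abundant of each member and the extremes in each direction. The nearest names came from the Euclidean distance of the 2 log2 ratios. Glutamate-type sequences are described without their letters. Alternatives used edgeR 4.0.16 (TMM), DESeq2 1.42.0 (size factors), Python 3.11.15 and pandas 2.3.3. The length classes and start types were chosen after the data were seen.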

Additional observations from a re-analysis of the deposited data

How the results depend on the processing

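Each group is 1 library, so no setting could be checked against replicates, and no paired fit exists. No paired analysis was possible because the 3 tables of a group hold identical counts. Scaling moved every ratio by the same amount: in OVER to CON by -0.13 with annotated reads, 1.35 with nuclear tRNA 5′ end reads, 0.14 with TMM and -0.10 with DESeq2 size factors, in RES to CON by -0.23, 0.83, 0.54 and 0.39, and in OVER to RES by 0.10, 0.52, -0.40 and -0.49. In that order, the log2 ratio of Lys-CTT in OVER to CON was 0.41, 1.88, 0.68 and 0.43, in RES to CON -2.03, -0.97, -1.26 and -1.41, and in OVER to RES 2.44, 2.85, 1.94 and 1.85. For Lys-TTT it was 0.26, 1.74, 0.53 and 0.29 in OVER to CON, -0.80, 0.26 (the 1 reversal), -0.030 and -0.18 in RES to CON, and 1.06, 1.47, 0.56 and 0.47 in OVER to RES. Reads of 25 to 40 nt only gave Lys-CTT 1.76, -1.88 and 3.64 in OVER to CON, RES to CON and OVER to RES. For Lys-TTT they gave 1.59, -0.39 and 1.99. The denominator changed with this setting too, so these values are not ratios of RPM, unlike those for 32 to 34 nt below. In OVER to CON much of the move is a shift shared by both names. In RES to CON the names moved in opposite directions, Lys-CTT from -1.80 to -1.88 and Lys-TTT from -0.57 to -0.39. With genome-matching reads Lys-CTT had 0.47, -1.94 and 2.41, and Lys-TTT 0.32, -0.71 and 1.03. In each library 100% of lysine-named reads were genome-matching, so this setting changed the denominator alone. Counting reads with 1 name alone gave Lys-CTT -2.56 in RES to CON and 3.13 in OVER to RES, and Lys-TTT 1.95, -2.80 and 4.75. Splitting reads equally over their names gave Lys-CTT -2.11 and 2.66, and Lys-TTT 1.29, -1.11 and 2.41. Reads with the first 20 bases of the leading sequence gave Lys-CTT -2.46 and 3.02, and Lys-TTT 1.50, -1.36 and 2.86. Sequences with at least 10 reads gave Lys-CTT 2.40 in OVER to RES. Settings chosen after seeing the data were reads of 32 to 34 nt, with 1.01, -3.93 and 4.94 for Lys-CTT and 2.11, -4.05 and 6.16 for Lys-TTT, and lysine-type starts, with 1.56, -1.20 and 2.76 for Lys-TTT. Names at least 2-fold apart numbered 26 in OVER against CON and 15 at 32 to 34 nt, and 10 in RES against CON, 6 with TMM, 3 with DESeq2 size factors and 19 at 32 to 34 nt. Of 87 recomputed values, 22 stayed within the counting interval, or within 1.5 times for a count, 64 moved beyond it and 1 reversed. The cause of the moves under scaling, name and length settings was not tested beyond the make-up of the names given above.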
